A study of Homo sapiens with 18 samples.

Results

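The RNA of 10 genes of receptor tyrosine kinase signalling was followed in spheroidal aggregates of 2 brain tumour lines held in a direct current electric field (dcEF). They were taken by name from a table of transcripts, as 9 receptors (MET, IGF1R, INSR, AXL, TYRO3, PDGFRA, PDGFRB, FGFR1 and DDR2) and 1 ligand (HGF). These 10 names stood among 32490 gene names in the table, and 102 of its 145326 transcripts belonged to them. The lines were U87 mg, derived from a human glioblastoma, and DAOY, derived from a human medulloblastoma, both long established and each the only one of its tumour type. Aggregates were embedded in an electrotaxis channel in a gel of medium and growth factor-reduced Matrigel. The samples were taken after 0, 2 or 8 h at 250 V/m, which gave 3 samples for each of 6 combinations of line and time, 18 in all, each pooled from 3 channels. No group here sat in the channel for 2 or 8 h with the field off, and an effect of dcEF therefore cannot be told apart from one of the hours spent there. RNA was read by poly-A selected sequencing of whole aggregates, in which fewer cells of a kind and less RNA per cell cannot be told apart.

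Receptor tyrosine kinases sit in the cell membrane with a ligand-binding part outside and a kinase inside. A bound ligand brings receptors together, the kinases phosphorylate each other, and adaptors gather there to start the PI3K and MAPK cascades that drive growth, survival and movement. HGF, also called scatter factor, is the ligand of MET, and both are known for the invasive growth of glioma. IGF1R and INSR are close relatives that bind insulin-like growth factors and insulin. AXL and TYRO3 belong to the TAM family with the ligands GAS6 and PROS1, PDGFRA and PDGFRB bind platelet-derived growth factors, FGFR1 binds fibroblast growth factors, and DDR2 binds collagen. The study treated electrotaxing aggregates with inhibitors that included foretinib, against MET and VEGF receptors among others, and OSI-906, against IGF1R and INSR. It reported that neither changed the directional bias of either line. The level of these receptors in each line, and whether it differed after time in the field, is a question that its design raises.

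Several of these genes are made in forms that differ by a short coding exon or by the place of a splice junction, and the transcript values below refer to these forms. The segments are shown in the coding direction from the GENCODE 29 transcripts (GRCh38), with the bases that one form has and the other lacks in capitals and 12 bases on each side in lower case. In INSR, the alternative exon of 36 bases at chr19:7150497-7150532 on the minus strand adds 12 codons near the end of the ligand-binding chain. In MET, 54 bases at chr7:116759337-116759390 on the plus strand add 18 codons to the part outside the cell. In AXL, 27 bases at chr19:41239694-41239720 on the plus strand add 9 codons close to the membrane. In HGF, 15 bases at chr7:81752248-81752262 on the minus strand add 5 codons. In IGF1R, 3 coding bases at chr15:98929558-98929560 on the plus strand set the 2 main transcripts apart.
INSR: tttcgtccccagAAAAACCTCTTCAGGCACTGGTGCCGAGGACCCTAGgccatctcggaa
MET: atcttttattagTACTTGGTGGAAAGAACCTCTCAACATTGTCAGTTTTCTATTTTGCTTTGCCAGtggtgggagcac
AXL: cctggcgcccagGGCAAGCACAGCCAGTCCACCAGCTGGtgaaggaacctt
HGF: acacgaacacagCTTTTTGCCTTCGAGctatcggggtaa
IGF1R: tccaggccaaaaCAGgatatgaaaact

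Between 8341976 and 15610886 estimated counts were assigned to transcripts per sample, and the 10 genes received from 0 to 8149 of them each. Levels are given as CPM (counts scaled to a common library total, with TMM factors) when one gene is compared between samples, and as TPM (which also divides by transcript length) when different genes are compared. Library replicate 0 of DAOY at 0 h stood apart in base composition, its log2 CPM falling by 0.47 for each 10 points of gene GC content against the mean of its line, while the other 17 libraries lay between -0.27 and 0.28. The glial markers VIM and CD44 were abundant in U87 mg at 0 h, with 5463 and 3848 CPM, whereas GFAP stood at 0.82 CPM and S100B at no more than 1 count per library. Of the medulloblastoma markers, DAOY at 0 h had ZIC1 at 12.3, ZIC2 at 17.3, PTCH1 at 15.3 and OTX2 at 2.93 CPM, with BARHL1 at 0. Summed over the 9 of 10 medulloblastoma markers in the table, U87 mg reached 52.7 to 69.4 CPM and DAOY 61.9 to 88.5 CPM, so that list did not separate the lines. The 8 glial markers summed to between 8001 and 10242 CPM in U87 mg and to between 3427 and 5641 CPM in DAOY. In U87 mg at 0 h nearly all of that was VIM and CD44. CHI3L1 held 112, NES 27.8, OLIG2 1.40 and SOX2 0.03 CPM there. Of the markers of leukocytes and microglia, PTPRC and AIF1 were at no more than 1.4 counts in any library at 0 h, whereas CD68 was at 277 CPM in U87 mg. PTPRC reached 6.1 counts in a U87 mg library at 2 h. Summed, the 6 markers of other cell types, these included, reached 189 to 361 CPM in U87 mg, nearly all of it CD68. In DAOY they reached 31.3 to 58.3 CPM, where PECAM1 held 21.5 at 0 h.

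Before the field, the 2 lines held most of these genes at different levels. In U87 mg at 0 h, MET was the most abundant of the 10 genes by TPM (144 ± 7.27, mean ± SD, n = 3), followed by FGFR1 (103 ± 12.1), AXL (100.1 ± 21.8) and DDR2 (53.2 ± 2.65), and the replicate ranges of FGFR1 and AXL overlapped. In DAOY at 0 h, FGFR1 (70.7 ± 14.3), PDGFRB (58.1 ± 8.34) and MET (51.4 ± 6.41) led, with overlapping ranges. These TPM sum all transcripts. In the main transcripts alone (at least 10% of a gene's counts in either line, at most 3), the order differed. FGFR1 then had 25.0 TPM in U87 mg and 16.9 in DAOY, below DDR2 (48.6 and 29.9). MET led by mean in both lines (130 and 45.2), ahead of AXL in U87 mg (98.1) and PDGFRB in DAOY (35.1). The ranges of MET and PDGFRB in DAOY overlapped. At the other end stood PDGFRA in U87 mg (1.46 ± 0.71 TPM) and HGF in DAOY (0.12 ± 0.054 TPM). In edgeR's quasi-likelihood test over all 18 samples, 9 of the 10 genes passed a Benjamini-Hochberg adjusted p (FDR) of 0.05 between the lines, 4 higher in DAOY and 5 lower, against 60.7% of the 16482 genes tested (32.8% higher and 27.9% lower). A difference between lines was thus common, and the median log2 difference was -0.69 for the 10 genes and 0.05 for all genes. HGF, at 1 to 3 counts per DAOY library, entered this test through U87 mg and could only be called lower in DAOY. The lines differ in tumour type, donor and culture history, which cannot be told apart here.

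**Figure D1:**
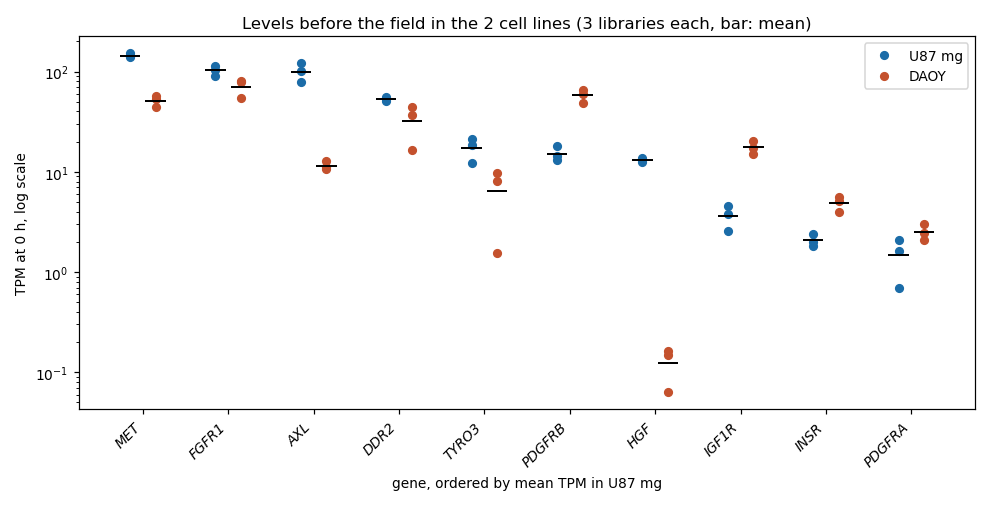
TPM of each gene (vertical axis, log scale) in the 3 libraries at 0 h of U87 mg (blue) and DAOY (orange), ordered by the mean in U87 mg, with a bar at each mean. AXL and HGF lie far lower in DAOY, while IGF1R, INSR and PDGFRB lie higher. PDGFRA is higher in DAOY by its mean, with ranges that just overlap.

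HGF, the ligand of MET, was made in U87 mg alone of the 2 lines at a level that could be followed. Its CPM in the 0 h libraries of U87 mg were 30.1, 23.2 and 28.9, and 276 to 446 counts lay behind them. In DAOY at 0 h it had 1 to 3 counts per library and 6 in all, so the U87 mg level was 144 times that of DAOY, with a 95% interval from counting error alone of 66.0 to 394. Over all 9 DAOY libraries HGF stayed at or below 0.50 CPM, and it was too low there for the test of the field. In U87 mg the level was 27.4 ± 3.68 CPM at 0 h, 27.5 ± 1.47 at 2 h and 23.9 ± 0.97 at 8 h (n = 3 each). The CPM ranges of 0 h and 8 h overlapped, while by TPM 8 h (10.7 to 11.8) lay below 0 h (12.6 to 13.8). Neither step passed (log2 fold change 0.02 ± 0.14 SE at 2 h and -0.16 ± 0.14 at 8 h; edgeR FDR 0.958 and 0.671). HGF lies on chromosome 7 (81699008 to 81770438, minus strand). Of its counts in U87 mg, 64.8% went to the full-length ENST00000222390 and 18.2% to ENST00000457544, which lacks the 15 bases shown above and also 3119 bases at the 3′ end and 150 at the 5′ end, so the split does not rest on the 15 bases alone. The latter took between 11.02% and 26.95% in single U87 mg libraries, with no group apart from the others.

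MET, the receptor of HGF, was the member whose level changed most clearly. In DAOY at 0 h its CPM were 219, 153 and 199, and at 2 h they were 144, 184 and 202. At 8 h they were 277, 392 and 460. Each 8 h library thus lay above all 6 earlier DAOY libraries, while the 0 h and 2 h ranges overlapped. MET rose 2.01-fold at 8 h (log2 fold change 1.01 ± 0.21 SE, 95% interval 0.55 to 1.46; edgeR FDR 0.0234), and its fold change at 2 h was -0.08 on the log2 scale (± 0.20 SE; edgeR FDR 0.999). It was the 1 of the 9 genes tested in DAOY that passed at 8 h, against 5.85% of all 15396 genes tested (2.34% higher and 3.5% lower). Summed over its transcripts, MET also met the study's second criterion, a change of at least 1 on the log2 scale in either direction. Of all genes, 3.13% passed with such a change. The study applied that criterion to single transcripts. The main MET transcript alone was at 0.97 and did not pass (edgeR FDR 0.1996).

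The MET call was close to the threshold and depended on single libraries. Without replicate 1 or replicate 2 of DAOY at 0 h the edgeR FDR was 0.0563 and 0.0629, and without replicate 1 or replicate 2 at 8 h it was 0.0899 and 0.0946, with log2 fold changes of 0.88, 1.05, 0.98 and 0.85. Without replicate 0 at 0 h, the library that stood apart in base composition, the log2 fold change was 1.11 (edgeR FDR 0.0329). MET transcripts are poor in GC (42.4%), and after the GC trend was removed from each library the log2 fold change was 1.07 (edgeR FDR 0.0044). With only the 6 samples compared, the edgeR FDR was 0.0581.

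In U87 mg, MET started higher and showed no such step. Its CPM were 634, 544 and 528 at 0 h, 588, 583 and 628 at 2 h, and 488, 623 and 654 at 8 h, so all 3 ranges overlapped. The log2 fold change at 8 h was 0.08 ± 0.13 SE (95% interval -0.21 to 0.38; edgeR FDR 0.840). At 0 h the level in DAOY was 2.99-fold lower than in U87 mg (log2 difference -1.58 ± 0.19 SE; edgeR FDR 1.4e-06). Ordered by mean TPM, the 3 U87 mg groups came first with overlapping neighbours, DAOY at 8 h followed (97.9 ± 22.8) with a range that overlapped that of U87 mg at 8 h, and DAOY at 0 h and 2 h (51.4 ± 6.41 and 51.4 ± 7.12) overlapped at the bottom. The 8 h change in DAOY exceeded that in U87 mg by 0.93 ± 0.26 on the log2 scale, with an unadjusted p of 0.0023 in edgeR but an edgeR FDR of 0.242, so the difference between the lines did not pass.

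The MET gene spans chromosome 7 from 116672390 to 116798386 on the plus strand. Nearly all its counts went to ENST00000397752, the form without the 54 bases shown above (98.5% in each line). In that transcript alone, DAOY had 45.2 ± 5.62 TPM at 0 h and 86.9 ± 19.6 at 8 h (n = 3). Its log2 fold change was 0.97 ± 0.21 (edgeR FDR 0.1996 over all 41336 transcripts tested; DESeq2 FDR 0.0017). The form with the 54 bases, ENST00000318493, was listed at 0 counts in all 6 DAOY libraries at 0 h and 2 h and at 56.3, 13.8 and 43.6 counts at 8 h. Those 8 h values were 0.39% to 1.79% of the MET counts of their libraries, and in U87 mg the same form had between 0 and 68.9 counts with no order by time. The edgeR FDR was 0.216 and the DESeq2 FDR 0.0148 for this form in DAOY. The 2 models also differ by 2044 bases at the 3′ end that only ENST00000397752 holds, so the split of reads between them does not rest on the exon alone.

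**Figure D2:**
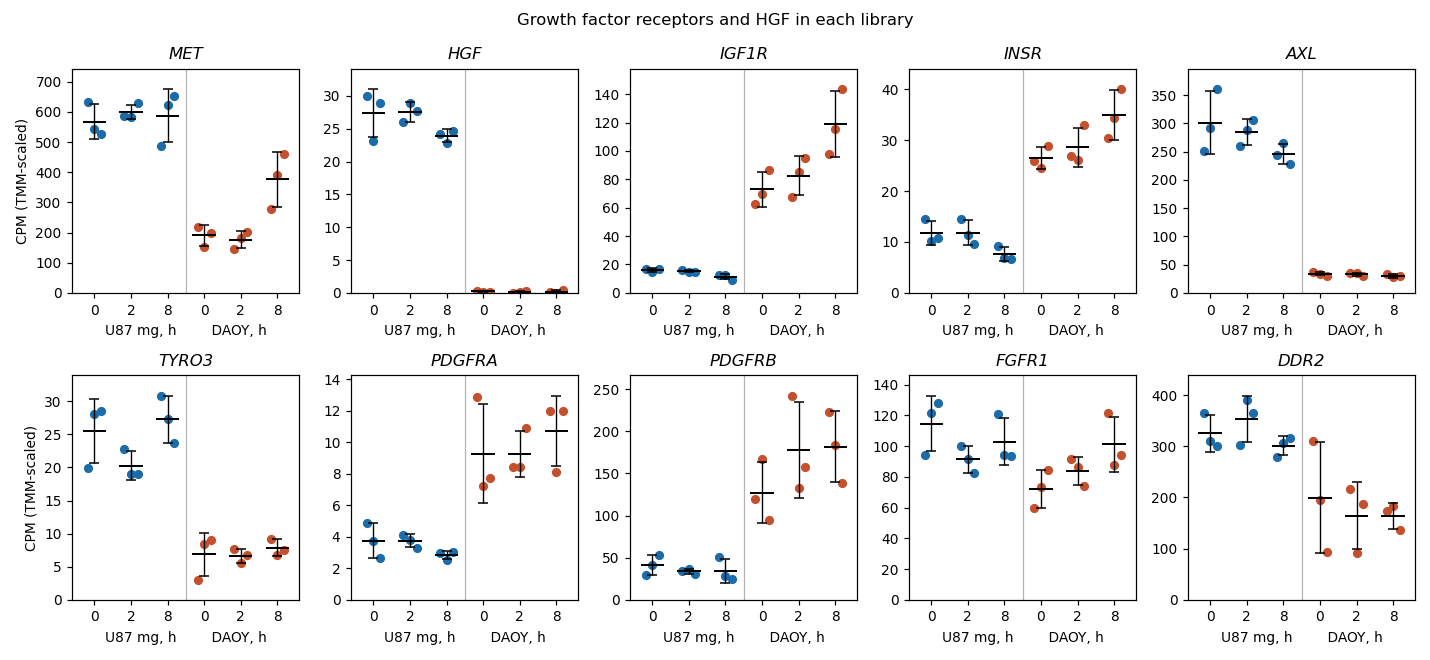
CPM (TMM-scaled, vertical axis from 0) of each of the 10 genes in the 18 libraries, by line and hours in the field, with the mean and SD of 3 replicates in black. MET in DAOY is above 276 CPM in each 8 h library and below 220 in every earlier one, while IGF1R and INSR lie higher at 8 h in DAOY and lower at 8 h in U87 mg.

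IGF1R and INSR, the receptors of insulin-like growth factors and insulin, stood higher at 8 h than at 0 h in DAOY and lower in U87 mg, and in neither line did the difference pass the test. IGF1R in DAOY had 62.7, 69.3 and 86.8 CPM at 0 h, 67.4, 85.4 and 94.9 at 2 h, and 97.9, 115 and 144 at 8 h. Each 8 h library lay above every 0 h and 2 h library. The log2 fold change at 8 h was 0.73 ± 0.19 SE (95% interval 0.31 to 1.14), with an edgeR FDR of 0.0502, just outside the threshold. Among the 10 alternatives to this fit the FDR ran from 0.0124 to 0.994 and fell below 0.05 in 6 of them. It was 0.0255 with the GC trend removed and 0.0124 with DESeq2.

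In U87 mg, IGF1R had 16.6, 14.8 and 17.0 CPM at 0 h and 12.2, 12.3 and 9.38 at 8 h, so that each 8 h library was the lower one. The log2 fold change was -0.48 ± 0.17 SE (95% interval -0.85 to -0.11; edgeR FDR 0.185). INSR had 14.5, 10.2 and 10.8 CPM at 0 h and 9.28, 6.89 and 6.66 at 8 h, again without overlap, and a log2 fold change of -0.59 ± 0.23 SE (95% interval -1.083 to -0.10; edgeR FDR 0.222). These were 2 of the 10 genes with separate CPM ranges in U87 mg at 8 h, against 17.4% of all genes tested. By TPM the ranges of IGF1R overlapped there. Of the 10 genes, 0 passed the edgeR test there, against 1.72% of all 14106 genes, and 2 had an unadjusted p under 0.05 in edgeR, against 15.9%. In DESeq2 0 of the 10 passed, and the share of all genes passing in DESeq2 is not given for this comparison.

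INSR in DAOY had 26.0, 24.6 and 28.8 CPM at 0 h and 30.3, 34.3 and 40.0 at 8 h, without overlap. This log2 fold change of 0.42 ± 0.17 SE did not pass (edgeR FDR 0.170). The 8 h change differed between the lines by 1.21 ± 0.25 for IGF1R and by 1.02 ± 0.28 for INSR on the log2 scale, DAOY minus U87 mg. In the interaction test the unadjusted p were 0.00012 and 0.0019 and the edgeR FDR 0.128 and 0.233, against 0.0121% of the 16482 genes tested, which is 2 genes. Of the 10 genes 0 passed this test, and 4 had an unadjusted p under 0.05, against 8.88% of all genes. DESeq2 and the fit with the GC trend removed gave IGF1R an FDR of 0.0054 and 0.0304. At 0 h DAOY had 4.52-fold more IGF1R (log2 difference 2.18 ± 0.18 SE; edgeR FDR 1.5e-08) and 2.25-fold more INSR (1.17 ± 0.20; edgeR FDR 6.6e-05) than U87 mg.

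**Figure D3:**
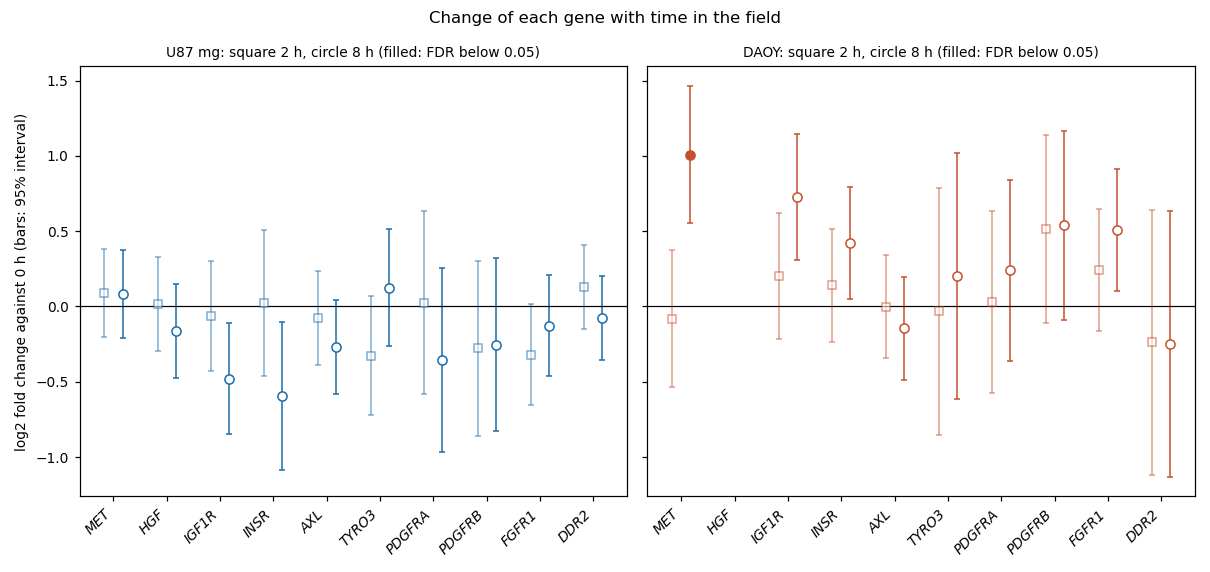
Log2 fold change against 0 h at 2 h (squares) and 8 h (circles) with 95% intervals for each gene in U87 mg (left) and DAOY (right), filled where the edgeR FDR is below 0.05. MET in DAOY at 8 h is the filled symbol, and HGF has none in DAOY because it was too low to test.

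The direction for IGF1R in DAOY depended on the scale. Summed over all transcripts, its TPM was 17.6 ± 2.56 at 0 h and 17.6 ± 3.04 at 8 h, and limma on log2(TPM + 1) gave a log2 fold change of -0.0034. The 2 long transcripts, ENST00000268035 and ENST00000558762, held nearly all the counts, and their summed TPM was 7.11, 9.92 and 12.5 at 0 h and 13.6, 14.5 and 18.9 at 8 h. The 11 remaining transcripts, several of them short, received at most 21.0 counts per 0 h library in DAOY, yet these amounted to 4.89 to 10.4 TPM. At 8 h they received at most 4.6 counts and 0.80 to 2.88 TPM. The counts and the TPM of the long transcripts were thus both higher at 8 h without overlap, and the summed TPM of all transcripts held a share set by few reads.

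**Figure D4:**
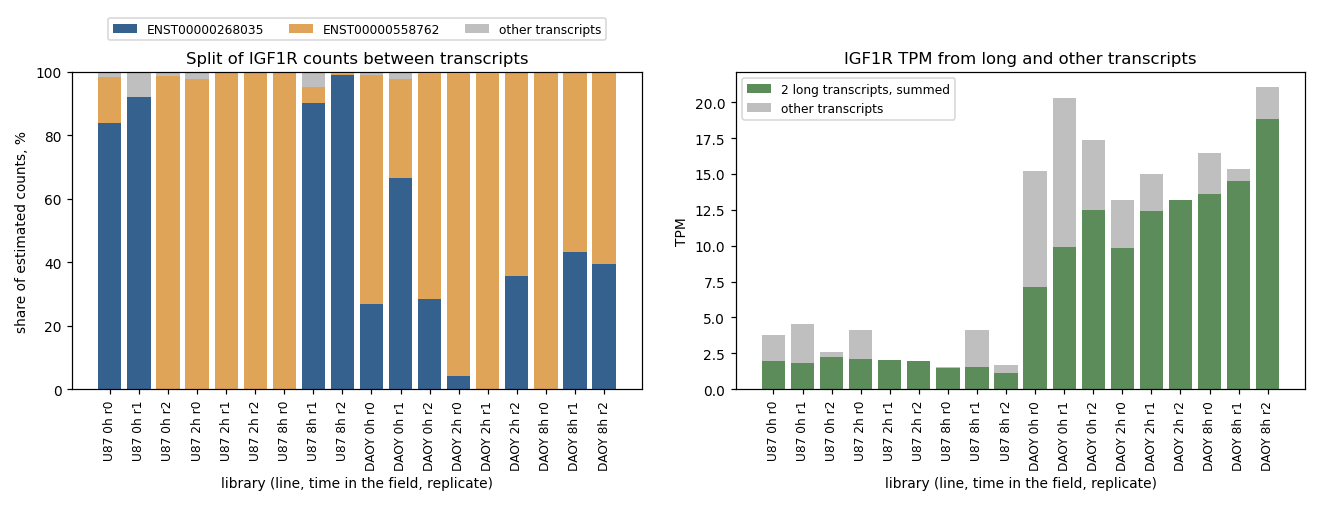
Left, share of the estimated IGF1R counts of each library given to its 2 long transcripts and to all others. Right, IGF1R TPM of each library from the 2 long transcripts summed and from the other transcripts, which make up 4.89 to 10.4 TPM in DAOY at 0 h.

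The 2 long IGF1R transcripts differ by 73 bases at the 5′ end, 1 base at the 3′ end and the 3 bases shown above. The longer one has 11803 bases. The split between them differed from library to library without order: ENST00000558762 took 72.2%, 31.2% and 70.8% of the IGF1R counts in the 3 DAOY libraries at 0 h and 99.5%, 56.5% and 60.3% at 8 h. A form with or without these 3 bases could not be followed at this depth. IGF1R lies on chromosome 15 (98648539 to 98964530, plus strand). INSR, on chromosome 19 (7112255 to 7294034, minus strand), gave 98.2% of its counts in U87 mg and 99.3% in DAOY to ENST00000341500, which lacks the 36 bases. The form with the 36 bases, ENST00000302850, was listed at 0 in 17 libraries and at 6.1 counts in replicate 2 of DAOY at 8 h. The model without the exon also holds 4372 bases at its 3′ end that the other lacks, so reads from that end were given to it whichever exon the RNA carried.

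AXL and TYRO3, the TAM receptors, were lower in DAOY and did not pass at either time. AXL had 251, 291 and 361 CPM in the 0 h libraries of U87 mg in ascending order and 30.6, 34.0 and 36.0 in those of DAOY, an 8.97-fold difference (log2 -3.17 ± 0.15 SE; edgeR FDR 2.2e-11). At 8 h its log2 fold change was -0.27 ± 0.14 in U87 mg and -0.15 ± 0.16 in DAOY (edgeR FDR 0.405 and 0.644), with overlapping ranges in both. TYRO3 stood at 25.5 ± 4.87 CPM in U87 mg and 6.85 ± 3.30 in DAOY at 0 h (log2 difference -1.88 ± 0.29; edgeR FDR 2.1e-05). Its log2 fold changes at 8 h were 0.12 ± 0.18 in U87 mg and 0.20 ± 0.37 in DAOY. The AXL form with the 27 bases, ENST00000301178, took 99.1% of the counts in U87 mg and 99.6% in DAOY, and it also holds 1472 bases at the 3′ end that the shorter form lacks. Most counts of TYRO3 were spread over 3 of its transcripts, 1 of them an annotated retained intron with 29.4% in U87 mg and 28.5% in DAOY.

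PDGFRA and PDGFRB were higher in DAOY. PDGFRB had 29.5, 41.7 and 52.8 CPM in the 0 h libraries of U87 mg in ascending order and 94.9, 119.5 and 167 in those of DAOY, 3.07-fold more (log2 difference 1.62 ± 0.30 SE; edgeR FDR 0.00015). In DAOY it was 178 ± 57.2 at 2 h and 182 ± 42.5 at 8 h, and the log2 fold changes of 0.51 ± 0.28 and 0.54 ± 0.28 did not pass (edgeR FDR 0.999 and 0.293). The CPM ranges overlapped with 0 h at both times. By TPM over all transcripts, the 2 h range (78.0 to 87.5) lay above that of 0 h (49.0 to 65.4), and the 8 h range overlapped it. In the main transcript alone the 0 h and 2 h ranges overlapped (27.6 to 49.9 and 38.3 to 72.7 TPM). PDGFRA was low in both lines, at 3.75 ± 1.12 CPM in U87 mg and 9.27 ± 3.13 in DAOY at 0 h (log2 difference 1.31 ± 0.28; edgeR FDR 0.0005). With limma on log2(TPM + 0.1) and log2(TPM + 1) that difference was 0.85 and 0.55 and did not pass (FDR 0.0794 and 0.0743). At 8 h its log2 fold changes were -0.35 ± 0.28 and 0.24 ± 0.27.

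FGFR1 in DAOY had 59.4, 73.2 and 84.2 CPM at 0 h and 87.5, 94.4 and 122 at 8 h in ascending order, without overlap, and its log2 fold change of 0.51 ± 0.18 SE did not pass (edgeR FDR 0.133). It passed in 1 of 10 alternatives, with the GC trend removed (0.46; edgeR FDR 0.0325), and limma on log2(TPM + 1) gave 0.088 (FDR 0.875). By TPM its ranges at 0 h and 8 h overlapped (70.7 ± 14.3 and 76.0 ± 22.3). Most of that TPM came from its 32 transcripts outside the 2 main ones (53.8 at 0 h and 52.2 at 8 h). The 2 main transcripts summed to 13.4 to 18.7 TPM at 0 h and 20.5 to 28.1 at 8 h, without overlap. Together with MET, IGF1R and INSR, FGFR1 made 4 of 9 genes whose 8 h range in CPM lay above the 0 h range in DAOY. There, 0 lay below. Of all genes tested, 11.3% lay above and 14.4% below. By TPM 2 of 9 lay above, MET and INSR, against 8.86% of all genes. In U87 mg it was 115 ± 18.1 CPM at 0 h and 103 ± 15.4 at 8 h. The line difference at 0 h was -0.67 ± 0.17 (edgeR FDR 0.0026). Its counts were spread over 34 transcripts, of which the most abundant took 44.0% in U87 mg and 55.7% in DAOY.

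DDR2, the collagen receptor, varied widely between the DAOY libraries, with 310.2, 195 and 93.2 CPM at 0 h, 217, 91.0 and 186 at 2 h, and 174, 183 and 136 at 8 h. In U87 mg it was 325 ± 35.4, 353 ± 45.5 and 301 ± 18.8 CPM at the 3 times. Its log2 fold changes at 8 h were -0.25 ± 0.40 in DAOY and -0.08 ± 0.13 in U87 mg (edgeR FDR 0.779 and 0.845). The line difference at 0 h was -0.71 ± 0.32 (edgeR FDR 0.0658). Without replicate 0 of DAOY at 0 h it was -1.17 (edgeR FDR 0.0038) and without replicate 2 it was -0.38 (edgeR FDR 0.239). Over the 18 fits that leave out 1 library it passed in 2, the other being without replicate 1 of DAOY at 2 h (edgeR FDR 0.0306), and over 8 alternatives it passed in 4, with an FDR from 0.00086 to 0.493.

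At 2 h no member passed in either line. The log2 fold changes lay between -0.33 (TYRO3) and 0.13 (DDR2) in U87 mg and between -0.24 (DDR2) and 0.51 (PDGFRB) in DAOY, and 0 of the 10 and 0 of the 9 genes tested had an unadjusted p under 0.05 in edgeR. Among all genes, 0% passed in either line at 2 h by edgeR, with 1239 and 424 genes at an unadjusted p under 0.05 in U87 mg and DAOY. At 8 h the median log2 fold change of the genes was 0.42 in DAOY (all genes -0.01), with 7 of 9 above 0, and -0.21 in U87 mg (all genes -0.0012), with 2 of 10 above 0. The edgeR test on transcripts called 0 of the 33 member transcripts tested in U87 mg and 0 of the 27 tested in DAOY at either time, as it did 0% of all transcripts. DESeq2 called 3 in DAOY at 8 h against 5.26% of all transcripts, the 2 MET transcripts named above and ENST00000532791 of FGFR1, but on simulated transcript counts most of its calls were of unchanged transcripts.

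The genes around these receptors were described by lists of ligands, other receptors, proteins that activate or bind ligands, adaptors and first effectors, and proteins that turn receptors over or inhibit them. At 8 h in DAOY, 0 of 14 ligands and 0 of 14 other receptors passed the edgeR test. Among the ligand-activating and binding proteins 1 of 13 passed, PLAU, the urokinase that can activate HGF, which fell from 127 ± 28.6 to 64.2 ± 19.8 CPM (log2 fold change -0.96 ± 0.25; edgeR FDR 0.0499). Among the adaptors 2 of 20 passed, with 0 to 8 over 10 alternatives, the highest with the GC trend removed. CRKL, an adaptor that links receptors to Ras-family signalling, rose from 73.6 ± 3.43 to 116 ± 11.8 CPM, a log2 fold change of 0.68 ± 0.14. PIK3R1, the regulatory subunit of PI3K, fell from 100.4 ± 12.9 to 63.1 ± 8.08 CPM, by 0.65 on the log2 scale.

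Among the proteins of receptor turnover and inhibition 3 of 16 passed in DAOY, all higher. CBLB, a ubiquitin ligase that marks activated receptors for degradation, rose from 53.4 ± 12.2 to 110.5 ± 7.45 CPM (log2 fold change 1.076 ± 0.17; edgeR FDR 0.0106). CBL, the ubiquitin ligase that acts on MET among others, rose from 94.4 ± 11.6 to 169 ± 28.7 CPM (0.87 ± 0.16; edgeR FDR 0.0166), and SH2B3, an adaptor that damps kinase signalling, from 242 ± 60.7 to 419 ± 39.6 CPM (0.82 ± 0.19; edgeR FDR 0.0331). These counts stood against 5.85% of all genes, and the medians of the lists ran from -0.20 for ligands to 0.20 for turnover genes. In the 9 fits that leave out 1 library each, CBLB passed in 7, CBL and CRKL in 6, SH2B3 in 3, PLAU in 2 and PIK3R1 in 0.

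At 8 h in U87 mg, where 1.72% of all genes passed, 0 of 11 ligands, 0 of 8 other receptors and 0 of 10 activating or binding proteins did. FRS2, the docking protein of FGF receptors, was the 1 of 19 adaptors that passed, and it rose from 52.0 ± 3.55 to 91.2 ± 16.4 CPM (log2 fold change 0.85 ± 0.15; edgeR FDR 0.0236). Of the 16 turnover genes 2 passed. CBL rose from 94.5 ± 15.4 to 143 ± 19.5 CPM (0.64 ± 0.14; edgeR FDR 0.0475), and SOCS1, a feedback inhibitor of cytokine signalling, fell from 4.39 ± 1.71 to 1.40 ± 0.41 CPM (-1.61 ± 0.35; edgeR FDR 0.0423). FRS2 passed in 6, and CBL and SOCS1 in 1, of the 9 fits that leave out 1 library. In the interaction test of the 8 h change 0 genes of any list passed, with 1 to 3 at an unadjusted p under 0.05 in each list.

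**Figure D5:**
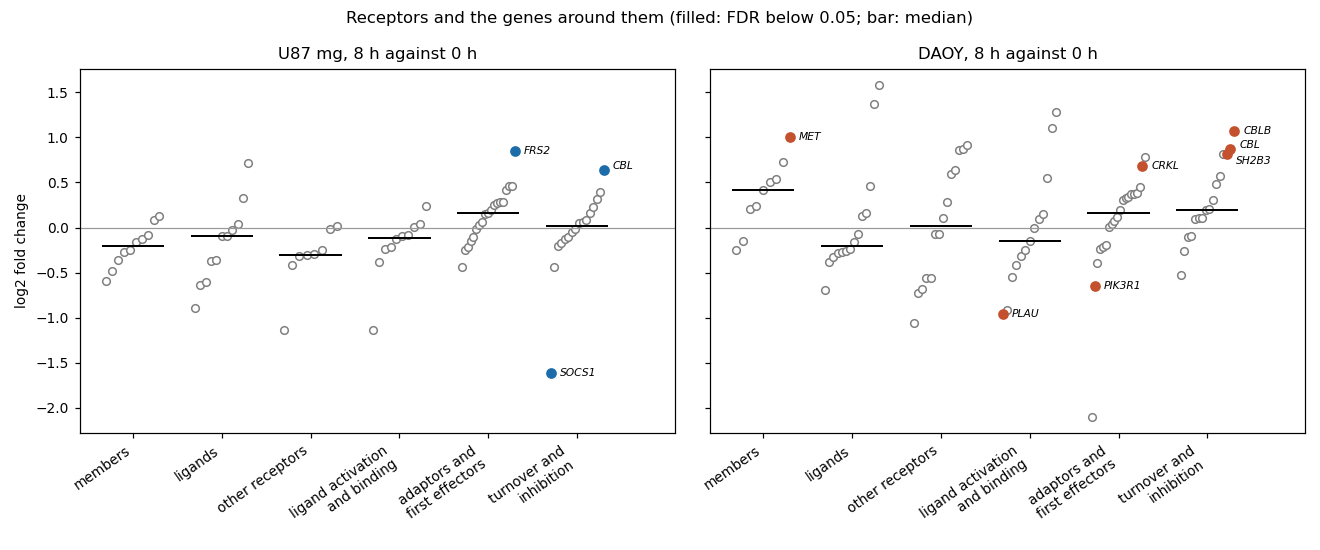
Log2 fold change at 8 h against 0 h of the members and of the genes in each list that could be tested, in U87 mg (left) and DAOY (right), filled and named where the edgeR FDR is below 0.05, with a bar at each median. In DAOY MET, CRKL, CBL, CBLB and SH2B3 are filled above 0 and PLAU and PIK3R1 below.

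The ligands at hand also differed between the lines at 0 h, where 13 of 14 passed, 6 higher and 7 lower in DAOY, against 60.7% of all genes. Over 8 alternatives the count ran from 7 to 14. IGF2 and FGF9 had at most 2 counts in any U87 mg library at 0 h, so a call for them could only be higher in DAOY. FGF2, a ligand of FGFR1, was at 697 ± 179 CPM in U87 mg and 10.3 ± 5.12 in DAOY, and FGF5 at 23.3 ± 3.10 and 0.81 ± 0.18 CPM. Collagen III, which DDR2 binds, stood the other way, with its gene COL3A1 at 0.65 ± 0.061 CPM in U87 mg and 1813 ± 995 in DAOY. U87 mg did hold RNA of collagen I, with COL1A1 at 186 ± 111 and COL1A2 at 529 ± 171 CPM. IGF2, a ligand of IGF1R and INSR, had 2 counts over the 3 U87 mg libraries and 354 over those of DAOY, where it ranged from 2.03 to 23.8 CPM, a ratio of 209 with a 95% interval from counting error alone of 57.5 to 1736. Its log2 difference of 7.51 in edgeR was 6.51 when replicate 0 of DAOY at 0 h was left out and 9.91 when replicate 2 of U87 mg was. IGF1 had at most 1 count in U87 mg and 2.3 in DAOY, and HGF, as given above, was found in U87 mg.

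Of the other receptors 10 of 14 passed between the lines, 7 higher in DAOY, against 60.7% of all genes (32.8% higher). Over 8 alternatives the count ran from 2 to 11. FGFR2, FGFR3, FLT3 and FLT1 had at most 2 counts in any U87 mg library at 0 h. A call for these 4 could only be higher in DAOY. FLT1, a VEGF receptor, was listed at 0 in the 3 U87 mg libraries and at 49.8 ± 26.0 CPM in DAOY, at least 200.1-fold higher against a floor of 3 counts in each U87 mg library. MERTK, the third TAM receptor, was at 0.25 ± 0.16 CPM in U87 mg and 5.34 ± 1.42 in DAOY, opposite in direction to AXL and TYRO3. Of the proteins that activate or bind ligands 7 of 13 passed, again against 60.7% of all genes. SPINT1 among them had at most 2 counts in any U87 mg library at 0 h, so its call could only be higher in DAOY. The IGF-binding proteins were split, with IGFBP5 at 0.23 ± 0.15 CPM in U87 mg and 598 ± 292 in DAOY and IGFBP6 at 75.1 ± 31.2 and 4.16 ± 1.16 CPM. Of the adaptors 8 of 20 passed and of the turnover genes 11 of 17, with medians of -0.04 and -0.32 on the log2 scale. With 60.7% of all genes passing, these counts do not set the lists apart. SOCS2 was the turnover gene with the widest gap, at 0.32 ± 0.13 CPM in U87 mg and 10.7 ± 2.32 in DAOY.

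The genes whose levels followed a member most closely were sought by Pearson's r of log2 CPM over the 18 samples, after the mean of each line was taken out, among 9496 genes. For MET they were NFIB (0.95), TULP4 (0.95) and SSFA2 (0.94), and for IGF1R CALCOCO1 (0.86), INPP5A (0.85) and PTPRE (0.85). For AXL they were DPYSL2 (0.87), TBX18 (0.80) and FZD1 (0.80), and for PDGFRB TSPAN9 (0.89), ACTN1 (0.88) and CSRP1 (0.85). These samples share libraries, depth and base composition, and the values are descriptions.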

How the data were processed

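The authors assigned single-end reads of stranded poly-A libraries to the GENCODE 24 transcripts (GRCh38.p5) with Kallisto 0.43.0 and deposited 1 table of estimated counts and TPM by transcript over the 18 samples. Estimated counts divide reads among transcripts that share exons, and use of the strand option is not stated in the sources used here. The paper's methods state that the 3 best replicates by quality control were kept per group. The 24 columns of the authors' own Sleuth comparisons (p-values, q-values and fold changes) were not used.

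Estimated counts were summed by gene name (18 names stood on more than 1 chromosome, none of them a member) and rounded. Genes were filtered with filterByExpr, scaled by TMM and tested with edgeR 4.0.16 (glmQLFit, glmQLFTest) in R 4.3.3, within the 9 samples of a line for time and over all 18 for the line difference and the interactions. A gene passed at an FDR below 0.05 over all genes tested. Alternatives used DESeq2 1.42.0 and limma 3.58.1. Standard errors are those of the log2 fold change, and other ± values are SDs. CPM were computed with TMM factors of all 18 libraries. Main transcripts had at least 10% of a gene's counts in either line, at most 3. Up to 5 passing genes per list and comparison were open to naming, and 3 similar genes for MET, IGF1R, AXL and PDGFRB among those with a mean log2 CPM of at least 3. Coordinates and sequences came from GENCODE 29, joined by transcript identifier. The scripts were tested on simulated counts, where DESeq2 called more unchanged than changed transcripts, so its transcript calls are weak evidence. The members and lists were chosen with earlier results of these data known, and removal of a GC trend was added after the data were seen. Without molecular identifiers, counting intervals (95%, exact binomial) and floors of 3 counts cover counting error only.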

Additional observations from a re-analysis of the deposited data

Results flagged for a closer look

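By CPM, each 8 h library of DAOY lay above each 0 h library for IGF1R and INSR, and each 8 h library of U87 mg lay below. Among all genes tested, 11.3% lay above in DAOY and 17.4% had separate ranges in U87 mg. By TPM the IGF1R ranges at 0 h and 8 h overlapped in both lines. They were 15.2 to 20.3 and 15.3 to 21.1 in DAOY, and 2.57 to 4.56 and 1.53 to 4.12 in U87 mg. Those of INSR stayed separate by TPM in both. The 8 h change, DAOY minus U87 mg, was 1.21 ± 0.25 SE on the log2 scale for IGF1R and 1.02 ± 0.28 for INSR. The difference itself was tested as an interaction and did not pass for either gene (edgeR FDR 0.128 and 0.233). For IGF1R the FDR ranged from 0.0054 to 0.801 over 8 alternatives and fell below 0.05 in 3 of them, and for INSR it ranged from 0.060 to 0.422 and fell below 0.05 in 0. Over the 18 fits that leave out 1 library each, 0 passed for either gene.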

How the results depend on the processing

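In DAOY at 8 h, 1 member passed in the reported fit. This became 2 (MET and IGF1R) with all 18 samples in one fit (11% of all genes passing), with at least 10 counts in every sample (6.76%), with DESeq2 (9.43%), with no filter (3.66%) and with the replicate block (2.79%), 3 with the GC trend removed (FGFR1 in addition; 16%), and 0 with only the 6 samples compared (1.39%). Leaving out each library gave between 0 and 1. For the 8 h interaction, 0 members passed in the reported fit, 1 with DESeq2 (0.632% of all genes), and 2 each with the GC trend removed (0.764%) and with no filter (0.49%). DESeq2 called 3 member transcripts in DAOY at 8 h, against 5.26% of all, where edgeR called 0. The cause of these shifts was not tested.

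The reported fit did not treat replicate numbers as pairs. Deviations of same-numbered libraries from their group means correlated between -0.34 and 0.44 in U87 mg and between -0.34 and 0.66 in DAOY. Differently numbered libraries gave -0.40 to 0.45 and -0.45 to 0.63. Between 2 h and 8 h in U87 mg, same-numbered libraries (0.20 to 0.44) all lay above the others (-0.38 to -0.0073). In the other comparisons of times they overlapped, so these values do not settle whether the numbers mark pairs. FGFR1 between the lines at 0 h had an FDR of 0.0507 with the block.

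Signs turned in values that did not pass. With limma on log2(TPM + 0.1) and log2(TPM + 1), the log2 fold changes were -0.0037 and -0.0034 for IGF1R in DAOY at 8 h, 0.15 and 0.14 for PDGFRB in U87 mg at 8 h, and 0.094 and 0.088 for TYRO3 in U87 mg at 2 h. With the GC trend removed, HGF and DDR2 in U87 mg at 2 h were at -0.23 and -0.039. Leaving out single libraries gave -0.59 to 0.21 for DDR2 in DAOY at 2 h and -0.58 to 0.19 at 8 h, -0.084 to 0.071 for HGF in U87 mg at 2 h, -0.22 to 0.037 for MET in DAOY at 2 h, -0.010 to 0.21 for MET in U87 mg at 8 h, and -0.15 to 0.45 and -0.034 to 0.21 for TYRO3 in DAOY and U87 mg at 8 h. Of 30 further member values at 2 h or in the interactions, not given singly above, 23 changed sign under at least 1 setting and 0 passed under any. At 8341976 to 15610886 counts per library, HGF could not be tested between times in DAOY, and transcripts were resolved less well than genes (biological coefficient of variation 0.76 and 0.83 against 0.18 and 0.26 in U87 mg and DAOY).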
